A study of Homo sapiens with 10 samples.

Results

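The genes described here are 47 genes of the G1/S transition and of DNA replication, taken as a named list that holds the MCM helicase, the origin factors, the replicative polymerases, the sliding clamp and its loaders, deoxynucleotide enzymes and regulators of S phase entry. All 47 were measured, out of 22432 genes named on the arrays. With ZHX2 knocked down, 44 of the 47 rose, where 11.9% of all genes were called higher and 6.41% lower, and the median change of the 47 was 0.53 on the log2 scale (1.44-fold). The median change was 0.45 when 1 of the 2 control arrays, scrambled replicate 2, was left out. Calls then became fewer both among the 47 and over all genes. In a separate experiment with p65 knocked down, 46 of the 47 had lower values than its control, with a median log2 difference of -1.13 (0.458-fold), but no gene on those arrays passed the primary test.

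DNA replication begins with licensing, when the origin recognition complex, CDC6 and CDT1 load the MCM2-7 helicase onto DNA in G1. At the start of S phase the kinases CDK2, with cyclin E, and CDC7, with DBF4, convert the loaded helicase into the active CDC45-MCM-GINS (CMG) complex, and polymerases, clamp and clamp loader assemble on it. Most of these genes are known targets of E2F transcription factors, which the retinoblastoma protein holds back until cyclin-dependent kinases phosphorylate it, so their messenger RNAs are abundant in cycling cells and low in resting ones.

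The cells were 786-O, an established human clear-cell renal carcinoma line that lacks functional VHL. Every group, controls included, was infected with lentivirus and selected with puromycin at 2 ug/ml. The first table holds a scrambled hairpin, ZHX2 hairpin 44 and ZHX2 hairpin 45, and the second holds a control hairpin and 1 hairpin against p65 (gene RELA), a subunit of the inflammatory transcription factor NF-kB, with 2 arrays in each of the 5 groups and 10 in all. ZHX2 is a transcription factor with zinc fingers and homeodomains. The labels give neither the time after infection nor whether the 2 arrays of a group came from separate cultures, so the p-values reflect the spread among these samples alone, and that spread may be technical.

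The values are log2 signals, with array medians from 6.15 to 6.22 in the ZHX2 table and from 1.87 to 1.89 in the p65 table. How many arrays there are limits the precision. The tables were fitted separately, and no level is compared between them or between probe sets. A gene is called higher or lower below at a Benjamini-Hochberg adjusted p under 0.05 over all 22432 genes in limma, a linear model that moderates each gene's variance with that of the other genes. ZHX2, the targeted gene, gave signals of 10.58 and 10.43 in scrambled cells, of 9.35 and 9.38 with hairpin 44 and of 8.93 and 9.02 with hairpin 45. RELA gave 7.64 and 7.67 in the controls of the p65 table and 5.04 and 5.28 with the p65 hairpin, so the groups did not overlap for either target. The renal marker PAX8 and the intermediate filament gene VIM lay at or above the 98.3 percentile of mean signal in both tables, while the leukocyte gene PTPRC lay at the 5.47 percentile or lower. These are single members of longer marker lists, and the percentiles of the other members are not given here.

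The promoters of these genes are shown because a shared promoter element is what many of them are known for. RefSeq start sites on GRCh38.p14 gave a window of 250 bases before to 50 bases after the start for 41 of the 47 genes, and 9 genes had more than 1 window. The windows were searched on both strands for 4 E2F-type words, TTTCGCGC, TTTGGCGC, TTTCCCGC and TTTGCCGC, and for CCAAT, the core of the NF-Y element. The E2F-type words can overlap one another on opposite strands, as in MCM6, and in MCM7 one of them overlaps a CCAAT match. Of the 41 genes, 24 (58.5%) held an E2F-type word, against 3.99% of all 27305 genes with a window and 5.4% of 15843 protein-coding genes. CCAAT was present in 26 of the 41 (63.4%), against 39.7% of all genes. In the shorter window that starts 100 bases before the start, 22 of 53 windows of these genes (41.5%) held an E2F-type word, against 1.68% of all 35116 windows. A match is a match of letters and is no evidence that a factor binds there.

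The 250 bases before the start are printed for 6 genes that the results below turn on. They are MCM6, with 4 E2F-type matches, the factor gene E2F1 itself, GINS2, which differed most with the p65 hairpin, MCM10, which rose most with the ZHX2 hairpins, and the exceptions LIG1 and CCNE1. Sequences run 5′ to 3′ on the gene's strand, are from RefSeq on GRCh38.p14, and have E2F-type and CCAAT matches of either strand in capitals.
MCM6 (chr2:135876444-135876693, minus strand): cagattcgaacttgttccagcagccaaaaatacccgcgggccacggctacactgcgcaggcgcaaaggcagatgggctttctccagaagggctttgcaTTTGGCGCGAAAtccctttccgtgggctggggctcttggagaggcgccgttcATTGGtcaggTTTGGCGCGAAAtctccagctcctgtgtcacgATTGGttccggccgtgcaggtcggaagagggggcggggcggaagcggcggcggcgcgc
E2F1 (chr20:33686386-33686635, minus strand): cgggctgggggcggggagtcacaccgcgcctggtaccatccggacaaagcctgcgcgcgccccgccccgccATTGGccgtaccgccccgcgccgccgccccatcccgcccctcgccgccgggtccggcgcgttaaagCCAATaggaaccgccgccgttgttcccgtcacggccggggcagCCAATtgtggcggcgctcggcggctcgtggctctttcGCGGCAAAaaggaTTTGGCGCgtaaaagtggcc
GINS2 (chr16:85688955-85689204, minus strand): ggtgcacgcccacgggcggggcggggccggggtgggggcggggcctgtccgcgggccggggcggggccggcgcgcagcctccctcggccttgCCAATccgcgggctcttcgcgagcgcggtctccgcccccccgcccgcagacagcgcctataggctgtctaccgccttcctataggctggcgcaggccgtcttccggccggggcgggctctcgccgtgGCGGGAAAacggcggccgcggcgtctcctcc
MCM10 (chr10:13161308-13161557, plus strand): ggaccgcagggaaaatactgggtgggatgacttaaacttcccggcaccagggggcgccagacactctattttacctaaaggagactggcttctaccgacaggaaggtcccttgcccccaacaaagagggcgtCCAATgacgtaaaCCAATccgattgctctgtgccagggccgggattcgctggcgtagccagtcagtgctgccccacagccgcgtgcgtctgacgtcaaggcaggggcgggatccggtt
LIG1 (chr19:48170345-48170594, minus strand): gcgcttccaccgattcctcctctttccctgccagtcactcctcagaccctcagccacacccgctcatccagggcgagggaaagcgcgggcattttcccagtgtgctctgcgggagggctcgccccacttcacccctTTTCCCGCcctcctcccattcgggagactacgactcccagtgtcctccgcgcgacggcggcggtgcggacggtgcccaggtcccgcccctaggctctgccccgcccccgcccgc
CCNE1 (chr19:29811741-29811990, plus strand): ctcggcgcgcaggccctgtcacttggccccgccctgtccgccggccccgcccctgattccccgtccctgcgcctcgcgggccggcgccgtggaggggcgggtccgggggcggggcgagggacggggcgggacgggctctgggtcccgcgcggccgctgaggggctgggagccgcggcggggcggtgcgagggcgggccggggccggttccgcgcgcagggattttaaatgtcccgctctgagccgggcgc
MCM6 holds 2 copies of a 12-base block in which a TTTGGCGC and, on the other strand, a TTTCGCGC overlap, starting at positions -152 and -90, where -1 is the base just before the start. E2F1 holds TTTGCCGC on the other strand at -33 and TTTGGCGC at -20, after 3 CCAAT matches. GINS2 holds 1 TTTCCCGC on the other strand, at -31. MCM10 holds 2 CCAAT matches and no E2F-type word, LIG1 holds 1 TTTCCCGC at -114, and CCNE1 holds neither word in this window.

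The first comparison asked how the replication genes differed between cells with either ZHX2 hairpin (4 arrays) and scrambled cells (2 arrays). With both hairpins averaged, 44 of 47 rose and 0 fell, where 11.9% of all genes tested were higher and 6.41% lower. The exceptions were POLD1 and POLD3, subunits of polymerase delta, and LIG1, the ligase that seals Okazaki fragments. The log2 change ran from -0.04 to 0.94, and 21 of the 47 were at least 1.5-fold higher, a size reached by 2.79% of all genes. All 4 hairpin arrays lay above both scrambled arrays for 46 of the 47, against 21.9% of all genes, and LIG1 was the one whose arrays overlapped. Centred on the scrambled mean, the median of the 47 was 0.06 and -0.06 in scrambled cells, 0.46 and 0.48 with hairpin 44, then 0.57 and 0.60 with hairpin 45, so the distance between groups was several times that within them.

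**Figure D1:**
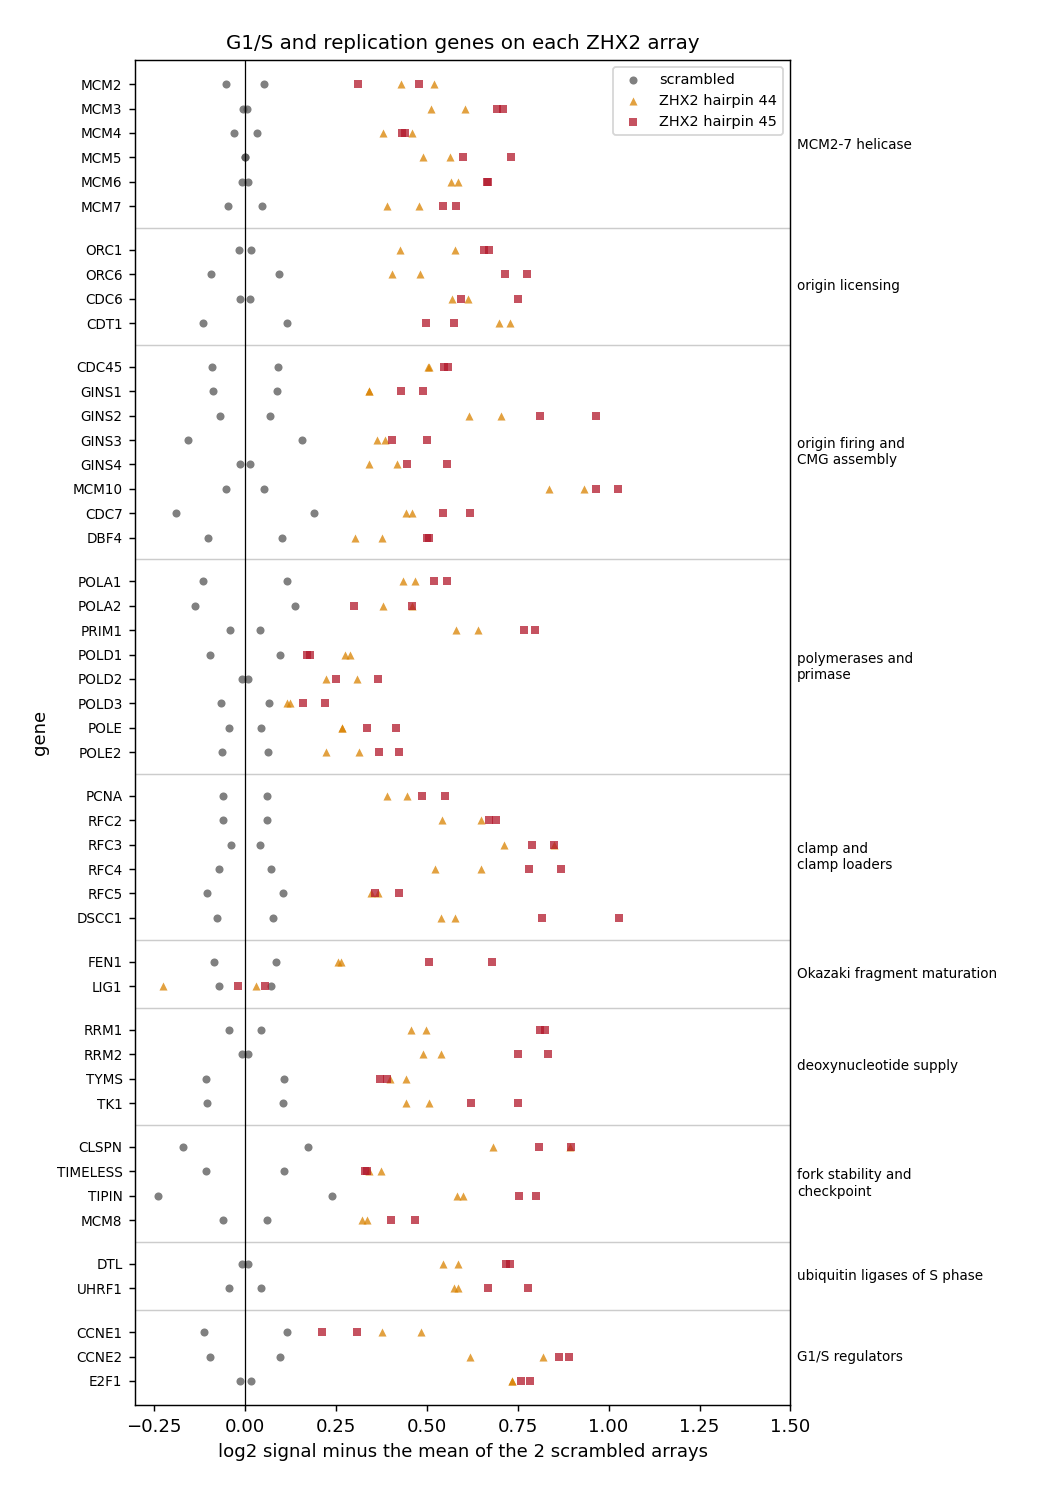
Log2 signal of each of the 47 genes on each of the 6 arrays of the ZHX2 table, minus the mean of the 2 scrambled arrays (x axis), by gene and role (y axis). Grey circles are scrambled arrays, orange triangles hairpin 44 and red squares hairpin 45, and for 46 genes all hairpin points lie to the right of both scrambled points, with LIG1 as the exception.

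Helicase genes rose together and by like amounts. All 6 genes of the MCM2-7 ring, the motor that unwinds the duplex, were called higher, with a median of 0.55 and a range from 0.43 (MCM4) to 0.63 (MCM3). MCM6 stood at 8.75 and 8.73 in scrambled cells, at 9.32 and 9.31 with hairpin 44 and at 9.41 on both arrays of hairpin 45. The change of 0.62 (SE 0.0602, limma adjusted p = 0.00325) was far larger than the SD of the scrambled arrays (0.0128, n = 2). MCM5 stood at 9.32 on both scrambled arrays, at 9.88 and 9.81 with hairpin 44 and at 10.05 and 9.92 with hairpin 45, with no overlap. MCM2 had the least even arrays of the ring, at 9.38 and 9.28 in scrambled cells against 9.85, 9.76, 9.81 and 9.64 with the hairpins, and its call was lost without any one of 3 arrays (scrambled replicate 2, hairpin 44 replicate 1 or hairpin 45 replicate 1), with limma adjusted p up to 0.0928.

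The 4 licensing genes, which load that ring, rose by a median of 0.61. CDC6, the ATPase that joins the origin complex to bring in the helicase, stood at 8.60 and 8.58 in scrambled cells, at 9.20 and 9.16 with hairpin 44 and at 9.18 and 9.34 with hairpin 45. CDT1, its partner in loading, stood at 8.98 and 8.75, then 9.59 and 9.56, then 9.44 and 9.36. Both hairpins lay clear of the scrambled arrays for each gene, and CDT1 was among the 7 of the 47 with the lower value for hairpin 45. The origin complex subunits ORC1 and ORC6 rose by 0.58 (SE 0.0714) and 0.59 (SE 0.0801), with limma adjusted p of 0.00566 and 0.0073.

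All 8 genes of origin firing rose, by a median of 0.48, and they held the largest change of the list. MCM10, which binds the CMG complex and is needed for it to unwind DNA, stood at 8.65 and 8.55 in scrambled cells, at 9.43 and 9.53 with hairpin 44 and at 9.62 and 9.56 with hairpin 45. Its change was 0.94 (SE 0.0712, limma adjusted p = 0.00200), or 1.92-fold, and no array of one side came near the other. GINS2, a subunit of the GINS tetramer, stood at 9.03 and 8.89, then 9.57 and 9.66, then 9.92 and 9.77, a change of 0.77 (SE 0.0824, limma adjusted p = 0.00401). The other GINS genes rose less, by 0.40 for GINS1, 0.41 for GINS3 and 0.44 for GINS4, and CDC45, which completes the helicase, by 0.53 (SE 0.0755). A second, dimmer GINS4 probe set changed by -0.17, and when both were averaged GINS4 lost its call (limma adjusted p = 0.367). CDC7 and its activator DBF4, the kinase pair that fires origins, rose by 0.52 (SE 0.114) and 0.42 (SE 0.0812).

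The polymerases and primase had the smallest median of the roles with more than 2 genes, 0.33, and 6 of the 8 rose. PRIM1, the catalytic subunit of the primase that makes the RNA primers, stood apart at 8.44 and 8.36 in scrambled cells against 8.98 and 9.04 with hairpin 44, then 9.17 and 9.20 with hairpin 45, a change of 0.70 (SE 0.0657, limma adjusted p = 0.00298). POLA1 and POLA2, of the polymerase that extends primers, changed by 0.49 and 0.40. POLE and POLE2, of the leading-strand polymerase, changed by 0.32 and 0.33. For polymerase delta, the lagging-strand enzyme, POLD2 changed by 0.29 (limma adjusted p = 0.0400), POLD1 by 0.23 (SE 0.077, limma adjusted p = 0.0989) and POLD3 by 0.15 (SE 0.0701, limma adjusted p = 0.194). POLD1 was nevertheless higher on all 4 hairpin arrays, at 8.89, 8.88, 8.78 and 8.77 against 8.70 and 8.51, and it passed the test when the variance prior followed signal intensity (adjusted p = 0.0228).

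All 6 clamp and clamp loader genes rose, by a median of 0.67. PCNA, the sliding clamp that tethers polymerases, stood at 9.26 and 9.14 in scrambled cells, 9.64 and 9.59 with hairpin 44, then 9.69 and 9.75 with hairpin 45, a change of 0.47 (SE 0.0702, limma adjusted p = 0.00983). Among the loader subunits, RFC3 stood at 9.35 and 9.27, then 10.16 and 10.02, then 10.10 and 10.16, a change of 0.80 (SE 0.0732, limma adjusted p = 0.00283). RFC4 and RFC2 rose by 0.71 and 0.64, and RFC5 by 0.37. DSCC1, of the alternative loader that serves sister chromatid cohesion, rose by 0.74 (SE 0.0894), with 7.65 and 7.49 in scrambled cells, 8.15 and 8.11 with hairpin 44, then 8.39 and 8.60 with hairpin 45.

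The 2 genes of Okazaki fragment maturation went apart. FEN1, the flap nuclease, stood at 8.18 and 8.35 in scrambled cells, at 8.53 and 8.52 with hairpin 44 and at 8.77 and 8.94 with hairpin 45, a change of 0.43 (SE 0.0854, limma adjusted p = 0.0219). LIG1 stood at 9.00 and 9.15, then 9.11 and 8.85, then 9.13 and 9.06, a change of -0.04 (SE 0.0967, limma adjusted p = 0.819). The scrambled and hairpin arrays therefore overlapped.

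All 4 genes of deoxynucleotide supply rose, by a median of 0.61. RRM1 and RRM2, the subunits of ribonucleotide reductase, rose by 0.65 (SE 0.0646, limma adjusted p = 0.00346) and 0.65 (SE 0.0647, limma adjusted p = 0.00335). RRM2 stood at 9.28 and 9.29 in scrambled cells, 9.78 and 9.83 with hairpin 44, then 10.04 and 10.12 with hairpin 45, whereas a second, dimmer RRM2 probe set changed by 0.19. TYMS, which makes thymidylate, and TK1, which salvages thymidine, rose by 0.40 and 0.58. TYMS stood at 10.65 and 10.44 in scrambled cells against 10.94, 10.99, 10.91 and 10.93 with the hairpins.

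The checkpoint, ubiquitin ligase and G1/S regulator genes were all called higher. CLSPN, the adaptor claspin that links stalled forks to CHK1, stood at 8.33 and 7.98 in scrambled cells, 8.84 and 9.05 with hairpin 44, then 8.97 and 9.05 with hairpin 45, a change of 0.82 (SE 0.120, limma adjusted p = 0.00921). The SD of its scrambled arrays was 0.243, against 0.0737 for MCM10 (n = 2 each). A dimmer CLSPN probe set changed by 0.33. The fork protection partners TIMELESS and TIPIN changed by 0.35 and 0.68, and the helicase gene MCM8 by 0.38. DTL, the substrate receptor that marks CDT1 for destruction, and UHRF1, which guides maintenance of DNA methylation, rose by 0.64 and 0.65 (limma adjusted p = 0.00299 and 0.00401).

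E2F1, the transcription factor that drives many of the other genes, stood at 9.52 and 9.49 in scrambled cells, at 10.24 on both arrays of hairpin 44, and at 10.29 and 10.26 with hairpin 45. Its change of 0.75 (SE 0.0606, limma adjusted p = 0.00220) left all hairpin arrays clear of the scrambled ones. CCNE2, a cyclin that activates CDK2, stood at 7.92 and 7.73, then 8.44 and 8.64, then 8.69 and 8.71, a change of 0.80 (SE 0.0924). CCNE1, the other E cyclin, stood at 8.05 and 7.83, then 8.32 and 8.42, then 8.15 and 8.25. That change of 0.34 (SE 0.0904) only just passed (limma adjusted p = 0.0498), and neither hairpin alone passed for it (adjusted p = 0.0652 with hairpin 44 and 0.145 with hairpin 45).

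The calls depend on the scrambled arrays. In scrambled cells 42 of the 47 genes were higher on replicate 1 than on replicate 2, by a median of 0.12 against 0.03 for all genes, and without replicate 2 the count of calls went from 44 to 24, while the share of all genes called higher went from 11.9% to 4.46%. Without scrambled replicate 1 it was 43, with 10.3% of all genes called higher. Leaving out an array of either ZHX2 hairpin gave 28 or 29, with 5.80% to 6.40% of all genes called higher, so calls became fewer both among the 47 and over all genes. Of the 44 calls, 23 held with every single array left out, namely MCM3, MCM5, MCM6, MCM7, all 4 licensing genes, CDC45, GINS2, MCM10, PRIM1, RFC2, RFC3, RFC4, DSCC1, RRM1, RRM2, CLSPN, DTL, UHRF1, CCNE2 and E2F1, and 14 held in at most 1 of the 6 omissions. No called gene changed by less than 0.23 in any omission.

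Taken one at a time against the same scrambled arrays, which the comparisons therefore share, hairpin 44 gave 29 calls and hairpin 45 gave 41, all higher. Over all genes 4.81% were called higher and 2.84% lower with hairpin 44, and 13% higher and 7.11% lower with hairpin 45. The median change of the 47 was 0.47 with hairpin 44 and 0.58 with hairpin 45. Hairpin 45 also called each of the 29 genes of hairpin 44, and 6 genes were called with neither, namely POLA2, POLD1, POLD3, LIG1, TIMELESS and CCNE1. The hairpin 44 calls were sensitive to single arrays. Their count was between 0 and 14 with 1 array left out, and was 0 without scrambled replicate 2 or without either hairpin 44 array, where at most 0.143% of all genes were called higher. With a variance prior that followed intensity, hairpin 44 gave 43 calls (11.7% of all genes higher). With either of its own arrays left out, the median for hairpin 45 was 0.57 or 0.60. Its calls then became fewer both among the 47 and over all genes.

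Set directly against each other, the hairpins did not differ for any of the 47 in limma, where 0.129% of all genes were higher and 0.267% lower with hairpin 45. At an unadjusted p under 0.05, 6 of the 47 were higher with hairpin 45 and 0 lower, against 8.35% and 6.74% of all genes. The difference was above 0 for 40 of the 47, against 50.7% of all genes, with a median of 0.11. After quantile normalization that median was 0.06. RRM1 came closest, at 9.58 and 9.62 with hairpin 44, then 9.95 and 9.94 with hairpin 45, a difference of 0.34 (SE 0.0746, limma adjusted p = 0.151). ZHX2 itself was lower with hairpin 45 by 0.39 (limma adjusted p = 0.152). With a variance prior that followed intensity, 6 of the 47 were called higher with hairpin 45 (4.11% of all genes), namely ORC6, DSCC1, FEN1, RRM1, RRM2 and DTL.

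Many genes of the same processes outside the 47 also rose. Of 30 other replication factors 22 rose, by a list median of 0.35, with PRIM2, the regulatory primase subunit, at 0.67 (SE 0.100), the histone chaperone CHAF1A at 0.59 and RNASEH2A, a subunit of the nuclease that removes ribonucleotides from DNA, at 0.58. POLD4, a small subunit of polymerase delta, was the 1 that fell, by 0.38 (limma adjusted p = 0.0321). Of 29 other cyclin, kinase, E2F and RB family genes 16 rose, with the CDK2-activating phosphatase CDC25A at 0.79, RB1, the retinoblastoma gene, at 0.58 and CKS1B at 0.51, and RBL2, a pocket protein of resting cells, fell by 0.34 (limma adjusted p = 0.0274). The falls of POLD4 and RBL2 were no longer called after median centring of the arrays (adjusted p = 0.0522 and 0.0516). Of 7 other deoxynucleotide enzymes 2 rose, DCTPP1 at 0.60 and DTYMK at 0.50. For comparison the median change of all genes was between -0.01 and 0.01.

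Of 6 CDK inhibitor genes 1 was called. CDKN1A, which encodes p21, fell by 0.34 with the hairpins averaged (limma adjusted p = 0.0221), but it stood at 8.22 and 8.34 in scrambled cells, 8.21 and 8.20 with hairpin 44, then 7.71 and 7.66 with hairpin 45. Taken alone, hairpin 45 gave a fall (-0.59, limma adjusted p = 0.00646) and hairpin 44 a change of -0.08 that was not called (limma adjusted p = 0.615). Of 12 mitosis markers 11 rose, with a median of 0.45, among them CDK1 at 0.56, BIRC5 at 0.55 and CDC20 at 0.54. The median of the 12, centred on scrambled cells, was 0.33 and 0.36 on the hairpin 44 arrays and 0.55 and 0.58 on those of hairpin 45. In bulk RNA, more cells in S phase and more RNA of these genes per cell cannot be told apart.

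Markers of other cell types were read beside the share of all genes called in the same fit, 11.9% higher and 6.41% lower. Of 5 leukocyte markers CD68 fell by 0.46 and of 5 fibroblast markers LUM fell by 0.95, while 0 of 5 endothelial and 0 of 5 neuronal or other epithelial markers were called in limma. Of 8 markers of the renal line KRT18 rose by 0.62 and PAX8, PAX2 and NNMT fell, PAX8 by 0.38 and NNMT by 0.45. Taken alone, hairpin 45 gave a call for all 4, whereas hairpin 44 gave one for NNMT only, with PAX8 at -0.18 (limma adjusted p = 0.191) against -0.58 for hairpin 45 (limma adjusted p = 0.00528). The part of these markers in the rise of the replication genes was not tested.

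**Figure D2:**
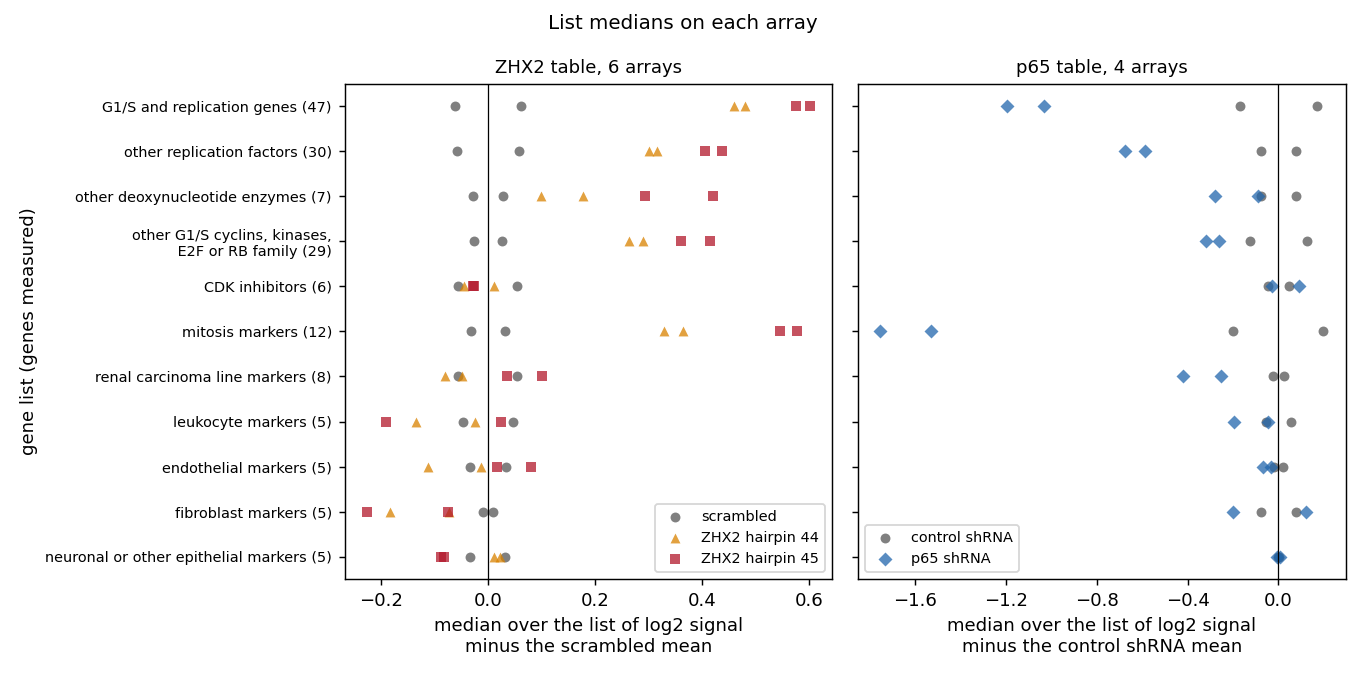
Median over each gene list of the log2 signal on each array, minus the control mean of its table (x axis), for the ZHX2 table at left and the p65 table at right, with 1 point per array and the number of genes measured in parentheses. The 47 G1/S and replication genes and the 12 mitosis markers lie to the right of scrambled cells with both ZHX2 hairpins and to the left of the control with the p65 hairpin, and the marker lists of other cell types stay near 0.

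The second comparison set the p65 hairpin (2 arrays) against its control hairpin (2 arrays) in its own table. No gene passed limma in that fit, 0 of the 47 and 0% of all 22432 genes. The smallest adjusted p of any gene, 0.0733, was shared by 78 genes, and 4 of them were MCM5, CDC45, TYMS and CLSPN. At an unadjusted p under 0.05, 40 of the 47 were lower and 0 higher, where 7.95% of all genes were lower and 6.39% higher. With a variance prior that followed signal intensity, an alternative form of the same test, 35 of the 47 fell and 0 rose, where 2.49% of all genes were lower and 1.37% higher. Both p65 arrays lay below both control arrays for 42 of the 47 and above them for 1, against 22.7% and 23.4% of all genes.

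In size, 28 of the 47 were at least 2-fold lower, against 2.14% of all genes. The control arrays themselves differed, since 44 of the 47 genes were lower on control replicate 1 than on replicate 2, by a median of 0.34. Centred on the control mean, the median of the 47 was -0.17 and 0.17 for the controls, against -1.20 and -1.03 with the p65 hairpin. The count of 35 rests on few arrays. It grew without control replicate 1 and shrank without control replicate 2, although lower calls over all genes did not become fewer in either fit. Without p65 replicate 2 it shrank further, and without p65 replicate 1 no call among the 47 was left. Lower calls over all genes also became fewer in those 2 fits. With any 1 array left out, the median difference of the 47 stayed between -1.31 and -0.98.

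**Figure D3:**
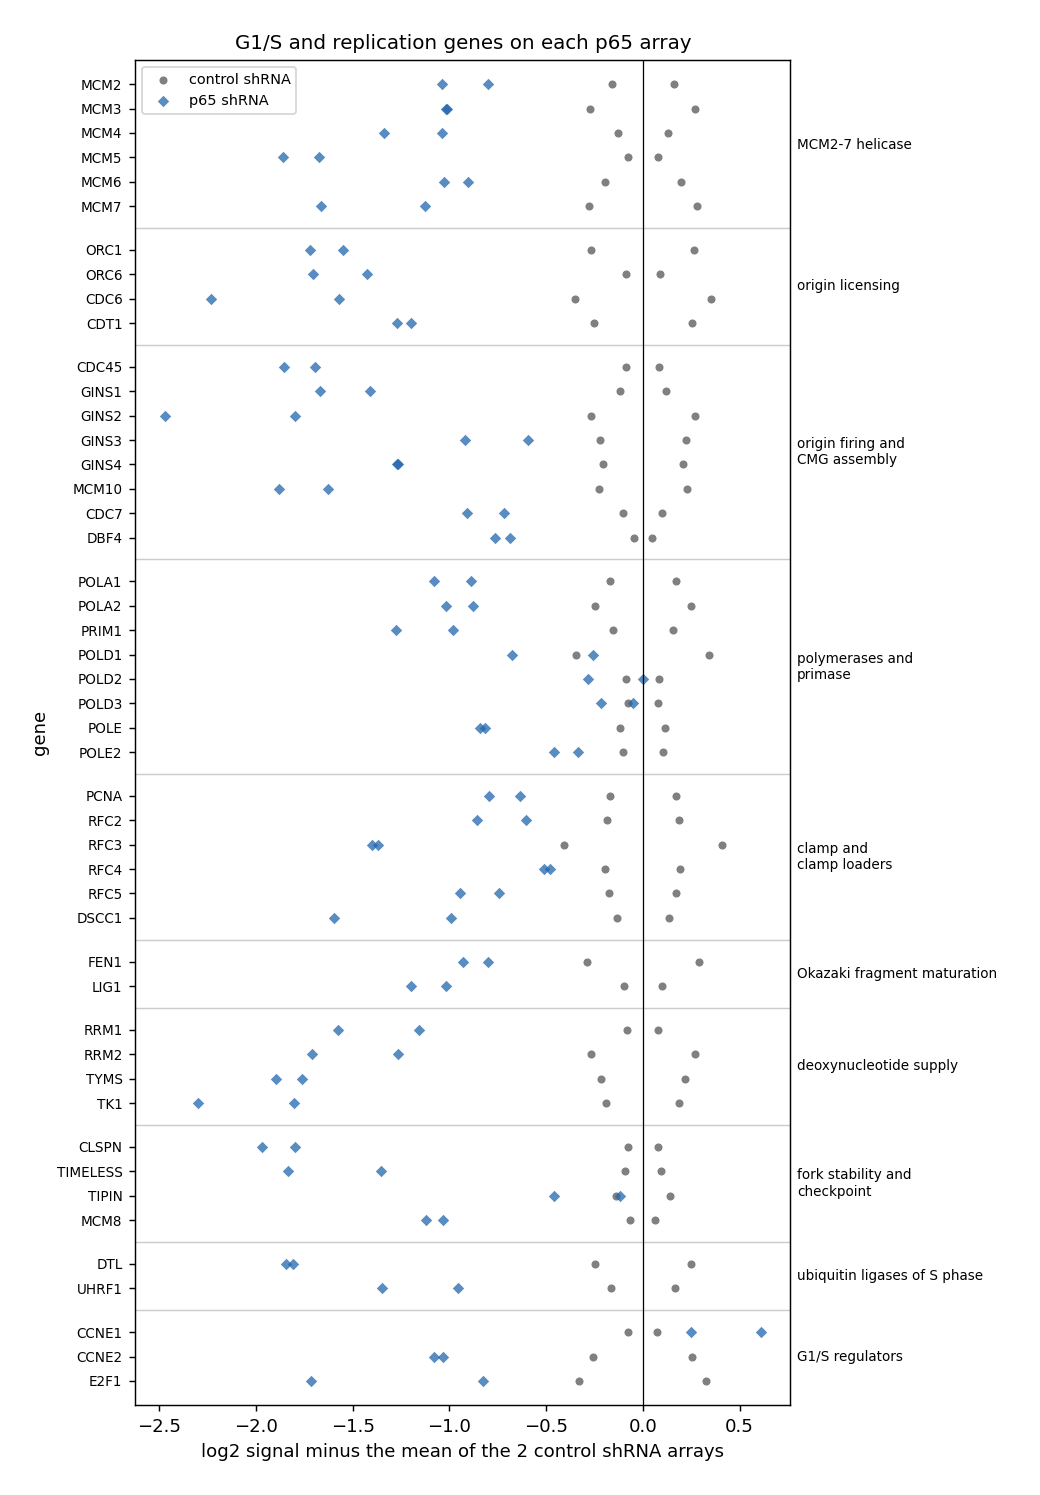
Log2 signal of each of the 47 genes on each of the 4 arrays of the p65 table, minus the mean of the 2 control arrays (x axis), by gene and role (y axis). Grey circles are control arrays and blue diamonds p65 hairpin arrays. The diamonds lie left of both circles for 42 genes, overlap them for POLD1, POLD2, POLD3 and TIPIN, and lie right of them for CCNE1.

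In what follows a gene is said to have fallen with the p65 hairpin where the fit with an intensity trend called it, and its SE and first adjusted p are from the fit without the trend. All 6 helicase genes fell, by a median of 1.10. MCM5 stood at 7.02 and 7.17 in the controls against 5.23 and 5.42 with the p65 hairpin, a difference of -1.77 (SE 0.179, limma adjusted p = 0.0733, and 0.00238 with the trend). MCM7 followed at -1.39 (SE 0.287), with 7.78 and 8.34 against 6.40 and 6.94. The remaining 4 lay between -1.19 and -0.92, and none of the 6 had overlapping arrays.

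The licensing and firing genes had lower medians than the helicase. All 4 licensing genes fell, by a median of 1.60, with CDC6 at 6.17 and 6.87 in the controls against 4.29 and 4.95 with the p65 hairpin, a difference of -1.90 (SE 0.336, limma adjusted p = 0.117, and 0.0136 with the trend). Of the 8 firing genes 7 fell, with a median of -1.41 for the group. GINS2 had the lowest difference of the 47, at 6.09 and 6.63 against 3.89 and 4.56, which is -2.13 or 0.228-fold (SE 0.307, limma adjusted p = 0.0948, and 0.00672 with the trend). CDC45 stood at 5.37 and 5.54 against 3.61 and 3.76, a difference of -1.77 (SE 0.178, limma adjusted p = 0.0733, and 0.00521 with the trend), and MCM10 at 6.78 and 7.24 against 5.38 and 5.13. GINS3 was the firing gene that was not called, at -0.76 (SE 0.234, adjusted p = 0.122 with the trend).

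Of the roles with more than 2 genes, polymerase genes had the difference nearest 0, with a median of -0.65. POLA1, PRIM1 and POLE fell among the 8, at -0.98, -1.13 and -0.83. POLD2 stood at 5.98 and 6.15 in the controls against 6.06 and 5.78 with the p65 hairpin, and POLD3 at 4.50 and 4.65 against 4.52 and 4.36, so both overlapped, with differences of -0.14 and -0.13. POLD1 overlapped too, at -0.47 (SE 0.294). Among clamp genes PCNA, RFC3, RFC5 and DSCC1 fell, PCNA from 8.27 and 8.61 to 7.64 and 7.81. RFC2 and RFC4 were not called, at -0.73 and -0.50.

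LIG1, which was not called with the ZHX2 hairpins, fell with the p65 hairpin, at 6.13 and 6.32 in the controls against 5.21 and 5.03, a difference of -1.11 (SE 0.182, limma adjusted p = 0.107, and 0.0141 with the trend). FEN1 was not called, at -0.87 (SE 0.243). All 4 deoxynucleotide genes fell, by a median of 1.66. TK1 stood at 8.21 and 8.59 against 6.10 and 6.60, a difference of -2.05 (SE 0.250, limma adjusted p = 0.0743, and 0.00301 with the trend). TYMS stood at 9.03 and 9.46 against 7.34 and 7.48, a difference of -1.83.

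CLSPN had the smallest unadjusted p of the 47, with 6.64 and 6.79 in the controls against 4.75 and 4.91 with the p65 hairpin, a difference of -1.88 (SE 0.177, limma adjusted p = 0.0733, and 0.00238 with the trend). Its dimmer probe set differed by -0.03, that of RRM2 by -0.27 and that of GINS4 by 0.40. TIMELESS, MCM8, DTL and UHRF1 fell, with differences of -1.59, -1.08, -1.83 and -1.15, and TIPIN was not called, at 5.65 and 5.93 against 5.33 and 5.67. Among the G1/S regulators CCNE2 fell by 1.05. E2F1 stood at 5.42 and 6.07 against 4.03 and 4.92, a difference of -1.27 that was not called (SE 0.374, adjusted p = 0.0860 with the trend), with an SD of 0.464 in the controls and 0.628 with the p65 hairpin (n = 2 each). CCNE1 was the only one of the 47 with a higher value, at 6.04 and 5.89 against 6.57 and 6.21, a difference of 0.43 (SE 0.201, limma adjusted p = 0.416, and 0.264 with the trend).

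The other lists in this table were read with the same fit. Of 12 mitosis markers 11 fell, with a list median of -1.65, of 30 other replication factors 12 fell, and of 29 other cyclin, kinase, E2F and RB family genes 8 fell, with 0 rises in any of them. CHAF1A and RNASEH2A differed by -1.44 and -1.35, CDC20 by -1.79 and CKS1B by -1.46. RB1, which rose with the ZHX2 hairpins, stood at 7.68 and 8.48 in the controls against 8.34 and 8.20 with the p65 hairpin, and overlapped. CDKN1A rose, from 5.56 and 5.76 to 6.42 and 6.62, a difference of 0.86 (SE 0.183, adjusted p = 0.0286 with the trend). Of the other deoxynucleotide enzymes DTYMK fell, and of the renal line markers CDH2 and EPAS1 fell, by 0.57 and 0.85. No marker of leukocytes, endothelium, fibroblasts or neurons and other epithelia was called by either fit, and the part of any marker list in the lower replication genes was not tested.

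Side by side, 45 of the 47 genes lay above 0 with the ZHX2 hairpins and below 0 with the p65 hairpin, as did 24.9% of all genes. The 2 exceptions were LIG1 and CCNE1. Of the 47, 34 rose with the ZHX2 hairpins in the fit without a trend and fell with the p65 hairpin in the fit with it. Of all genes, 11.9% were called higher in the first of these fits and 2.49% lower in the second. The share of all genes with both calls was not counted. Another 10 of the 47 rose with the ZHX2 hairpins and were not called with the p65 hairpin. LIG1 fell with the p65 hairpin without a call in the other table, and POLD1 and POLD3 were called in neither. The tables share no arrays. Across the 47 genes, which are not independent replicates and share arrays within each table, Pearson's r between the changes was -0.46 and Spearman's rho -0.45. MCM10, CLSPN and GINS2 had large values on both sides, while polymerase delta genes were small on both.

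**Figure D4:**
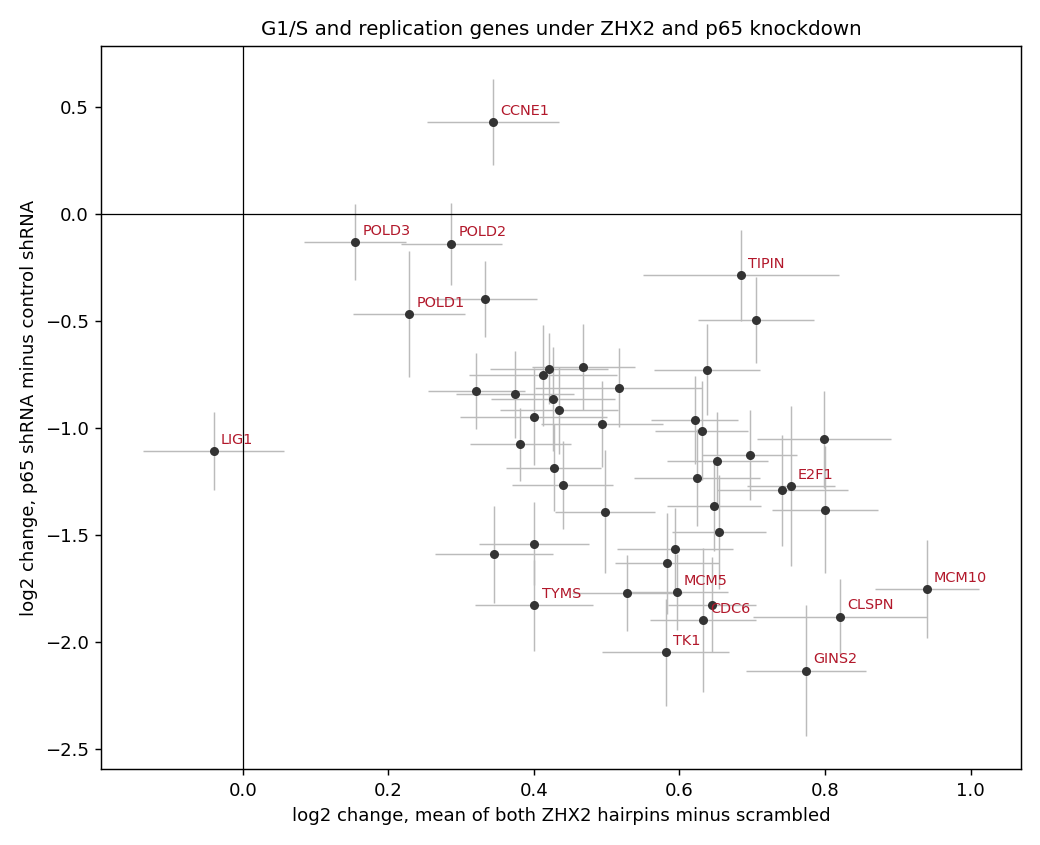
Log2 change of each of the 47 genes with both ZHX2 hairpins averaged (x axis) against its log2 difference with the p65 hairpin (y axis). Points are genes, bars are moderated standard errors from the 2 separate fits without an intensity trend, and 45 points lie in the lower right corner of the axes, with LIG1 to its left and CCNE1 above it.

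The 24 genes with an E2F-type word had a median change of 0.51 with the ZHX2 hairpins, between -0.04 and 0.82, and 23 of them rose. The 17 genes with a window and no such word had a median of 0.58, between 0.23 and 0.94, and 16 of them rose. Over all genes 11.9% were called higher in that fit. With the p65 hairpin the medians were -1.09 (between -2.13 and -0.29) and -1.13 (between -2.05 and 0.43). The difference between these groups of genes was not tested.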

How the data were processed

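Total RNA from 786-O cells was measured on 10 arrays, and the authors deposited log2 signals made with RMA, per the submitters' processing notes. RMA corrects background, normalizes between arrays and summarises probes into probe sets. The sources used here do not name its software, version or settings, and no detection measure was used, so no gene was called absent.

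Each table held 53617 probe sets. Through the platform annotations and RefSeq names, 24480 were assigned 1 gene, and 1842 with several, 99 with conflicting and 27196 with no gene were left out. A gene's probe set with the highest mean was used (1103 of 22432 genes had more than 1). Groups came from the sample titles. Group means were fitted with limma 3.58.1 in R 4.3.3, all 6 ZHX2 arrays in one fit and the 4 p65 arrays in another, without intensity trend, and the script was tested on simulated data. Fold changes are log2 differences of group means, and errors are moderated SE on 2 arrays per group. The fits were repeated with an intensity trend, with robust moderation, after quantile normalization or median centring, above the 40th percentile of mean signal, with probe sets averaged, with the replicate number as a block, on the compared groups alone, and without each array in turn.

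The genes and gene lists were chosen with earlier results of these data known. All 47 genes, ZHX2 and RELA were named. Of other lists, the 3 largest called changes with the ZHX2 hairpins and any called gene against its list's direction were named, and, for p65, called genes of lists with 5 or fewer. As limma called none there, those for p65 (DTYMK, CDH2, EPAS1) were taken from the fit with an intensity trend, and PAX2 was named after its value was seen. Listed genes without a probe set of 1 gene, such as DCK, CDKN2C and CA9, were not used here.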

Additional observations from a re-analysis of the deposited data

How the results depend on the processing

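No result changed direction under any alternative run, counting a sign change only where a gene was called. With each array left out, the count of genes higher with both ZHX2 hairpins ran from 24 to 43 and their median change from 0.45 to 0.61. For hairpin 44 the count ran from 0 to 14 and the median from 0.39 to 0.54, and for hairpin 45 from 20 to 41 and from 0.51 to 0.65. Quantile normalization lowered the median to 0.45 for both hairpins, 0.40 for hairpin 44 and 0.50 for hairpin 45, and 7 genes (GINS3, POLA2, POLD2, RFC5, FEN1, TIMELESS and CCNE1) lost their call with both hairpins. It also moved the share of all genes called higher with both hairpins from 11.9% to 9.41%, and the share of higher among all calls from 64.9% to 53.2%. Median centring gave a median of 0.63 for hairpin 45. For hairpin 44, with 29 calls (4.81% of all genes higher), fitting only the 2 groups compared left 11 (1.35% of all genes). The intensity trend gave 43 (11.7% of all genes), and leaving out dim probe sets gave 40 (12.1% of the genes kept). The trend also gave 6 calls higher with hairpin 45 than hairpin 44 (4.11% of all genes) and 35 lower with the p65 hairpin (2.49% of all genes). Adding quantile normalization gave 34, and leaving out 1 array under the trend gave 39, 27, 16 and 0, alternatives chosen after seeing the data. The cause of these changes was not tested.

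Over all genes no pairing by replicate number showed, since same-numbered replicate differences correlated between -0.03 and 0.05. A pairing that touched few genes would not show in such a correlation. With the number as a block, 17 replication genes were called higher for hairpin 44 (2.08% of all genes). The count was 41 for both hairpins (9.66% of all genes) and 39 for hairpin 45 (10.8% of all genes). Without the block hairpin 44 gave 29 calls, with 4.81% of all genes higher, so its calls became fewer in the list and over all genes. The 2 arrays per group limit every count here, and a group left with 1 array is assumed to vary like the other groups.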
